A study of Mus musculus with 4 samples.

Results

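Ubiquitin chains and the kinases that read them decide whether RIPK1 acts as a scaffold for NF-kappaB signalling or as a trigger of cell death. The 10 genes described here encode that machinery: the ubiquitin ligases cIAP1 (Birc2) and cIAP2 (Birc3), the linear ubiquitin ligase LUBAC (Rbck1, Rnf31, Sharpin), the linear-chain deubiquitinase Otulin, A20 (Tnfaip3) and its partner ABIN1 (Tnip1), the kinase TAK1 (Map3k7) and the chain-binding subunit NEMO (Ikbkg). They were chosen by name, and all 10 were found among the 19044 gene symbols of the count table. All 10 reached the mean of at least 5 CPM (counts brought to one common total per library) that was required for testing, as did 9680 genes in all.

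Messenger RNA was sequenced from regulatory T cells (Treg cells, CD4 T cells that express Foxp3 and restrain immune responses) of mouse spleen and peripheral lymph nodes. Every mouse carried Foxp3-YFP-Cre, a Cre recombinase with yellow fluorescent protein driven by Foxp3, so that recombination is directed to Foxp3-expressing cells. The WT libraries came from Foxp3-YFP-Cre mice and the libraries labelled knockout from Ripk1fl/fl Foxp3-YFP-Cre mice, in which Cre should remove the floxed part of Ripk1. Each genotype gave 1 rTreg and 1 aTreg library from untreated mice, where r is commonly read as resting and a as activated. The sources used here do not state ages, sexes, the number of mice pooled or the sorting gates.

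As background, when TNF binds its receptor, TRAF2 brings cIAP1 and cIAP2 to RIPK1, and they attach ubiquitin chains to it. LUBAC adds linear chains, on which the IKK kinases gather through NEMO, while TAK1 gathers on chains of another linkage. Both kinds of kinase phosphorylate RIPK1 and keep it from triggering death. A20, ABIN1 and Otulin limit or trim the chains, and A20 is itself an NF-kappaB target gene that is needed to restrain inflammation.

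Depth ran from 17588754 to 20868319 counts per library. The libraries labelled knockout showed no loss of Ripk1 mRNA: rTreg held 83.6 CPM in WT and 84.7 in the library labelled knockout, and aTreg held 77.5 and 80.8 CPM (edgeR adjusted p = 0.659). A count over the whole gene checks the deletion of a part of it only weakly, and these libraries are therefore called KO-labelled. Xist, the RNA that silences an X chromosome in female cells, was at 299 and 338 CPM in the WT libraries and at 0.284 and 0.213 CPM in the KO-labelled ones, and every library held Y-linked mRNA, with Ddx3y between 97.5 and 126 CPM. Of 4 Y-linked genes, Eif2s3y and Kdm5d rose with genotype by 0.50 and 0.42 log2 units, and Ddx3y (0.13) and Uty (0.11) did not pass. A difference in sex makeup and the genotype cannot be told apart in this design. The 7 genes that define Treg cells summed to 3420 and 3765 CPM in WT and to 3809 and 3848 CPM in KO-labelled libraries. One of them, Il2ra, which encodes the high-affinity interleukin-2 receptor chain, rose by 0.43 log2 units (557 and 499 CPM in WT rTreg and aTreg, 780 and 643 CPM in the KO-labelled ones), and the other 6 did not pass. Of the 9 B and plasma cell markers, 1 reached the level minimum, and they summed to between 14.6 and 25.4 CPM in WT and to 19.9 and 23.4 CPM in KO-labelled libraries. Of 10 myeloid and dendritic markers 2 reached it (sums of 64.0 to 70.1 CPM), and Siglech was absent from the counted symbols. Of 7 CD8 and NK markers 1 reached it, and Klra4, Klre1 and Ncr1 were absent from the counted symbols. The CD8 and NK markers present summed to 12.7 and 10.7 CPM in WT rTreg and aTreg. In KO-labelled rTreg and aTreg they summed to 20.2 and 17.0 CPM. Of the defining markers, Ms4a1 and Adgre1 were at a count of 0 in KO-labelled aTreg and Flt3 in both rTreg libraries, where 3 counts are 0.143 to 0.17 CPM. In bulk RNA, fewer cells of a type and less RNA per cell cannot be told apart.

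The mRNA of A20 and of its partner ABIN1 was lower in the KO-labelled libraries, and that of the ligases, Otulin, TAK1 and NEMO did not pass the test. Tnfaip3 fell 1.50-fold and Tnip1 1.19-fold. These were 2 of 10 genes lower by edgeR's quasi-likelihood test with genotype and state as terms, at a Benjamini-Hochberg adjusted p of 0.05, where 22.8% of all tested genes were called lower. None of the 10 was called higher, where 24.4% of all tested genes were. At an unadjusted edgeR p of 0.05, 1 gene, Sharpin, was higher and 3 were lower. The shares of all tested genes at that level were not computed. They cannot be smaller than the 24.4% and 22.8% at the adjusted threshold, so these counts do not set the 10 genes apart. DESeq2 with the same terms called 0 of the 10 higher and 2 lower. Over all 9680 tested genes it called 1370 higher and 1157 lower. The median log2 change of the 10 was 0.08 against 0.00206 over all tested genes. The fit has 1 residual degree of freedom, and with 1 library per group its p-values reflect differences among these libraries, not among animals.

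**Figure D1:**
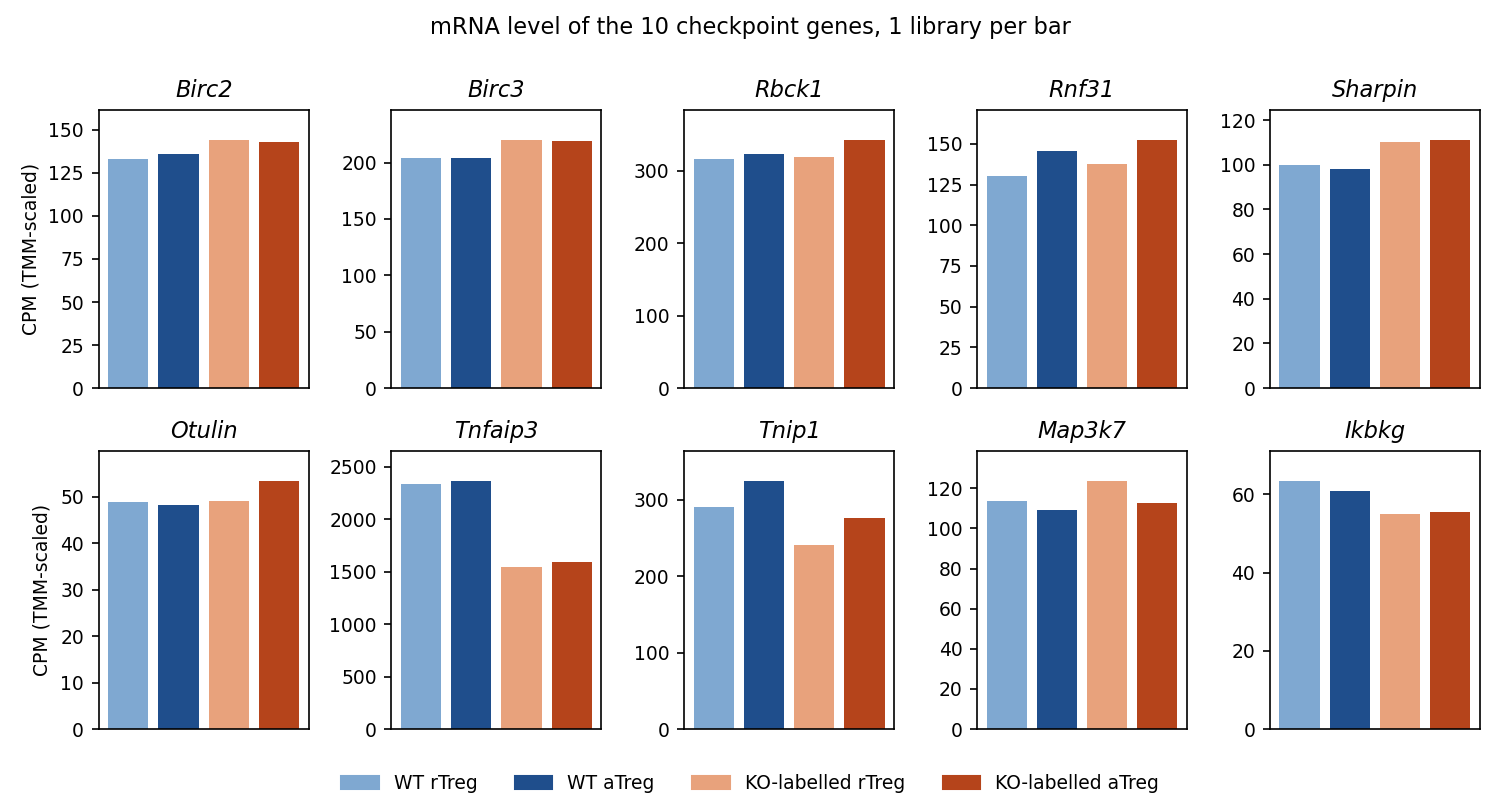
mRNA levels (TMM-scaled CPM, axes from 0) of the 10 checkpoint genes, 1 bar per library and with no replicates. Tnfaip3 stood at 2340 and 2370 CPM in the WT libraries and at 1546 and 1591 CPM in the KO-labelled ones, while bars of the ligase genes differed little.

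The cIAP genes encode ubiquitin ligases that modify RIPK1 at the TNF receptor. Birc2 was at 133 and 136 CPM in rTreg and aTreg of WT and at 144 and 143 CPM in the KO-labelled rTreg and aTreg libraries. Birc3, whose transcription is known to be induced by NF-kappaB, was at 204 and 204 CPM in WT and at 221 and 219 CPM in KO-labelled rTreg and aTreg. For both genes the KO-labelled libraries lay above the WT ones and the states lay close together. The fitted log2 change with genotype was 0.10 for Birc2 (SE 0.065, 95% interval −0.04 to 0.23, edgeR adjusted p = 0.244) and 0.11 for Birc3 (SE 0.065, −0.03 to 0.25, 0.191), so neither passed. Summed, the pair stood at 337 and 340 CPM in WT and at 365 and 363 CPM in KO-labelled libraries. Per kilobase of annotated exon, Birc3 was between 1.37 and 1.40 times the level of Birc2 in each of the 4 libraries. The genes are neighbours on chromosome 9 of GRCm38 (Birc2 from 7818227 to 7837064 and Birc3 from 7848699 to 7873186, minus strand) and do not overlap. They are also close relatives, and whether reads from similar sequence were assigned to the wrong gene was not tested.

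LUBAC joins the catalytic subunit HOIP (Rnf31) to HOIL-1 (Rbck1) and SHARPIN (Sharpin). Rnf31 was at 130 and 146 CPM in rTreg and aTreg of WT and at 138 and 153 CPM in the KO-labelled rTreg and aTreg libraries. Rbck1 was at 317 and 323 CPM in WT and at 320 and 343 CPM in KO-labelled rTreg and aTreg. Both aTreg libraries lay above both rTreg libraries for these subunits, while the genotypes overlapped. Sharpin, at 99.8 and 98.0 CPM in WT and 110 and 111 CPM in KO-labelled rTreg and aTreg, had the opposite arrangement, with both KO-labelled libraries above both WT ones and the states overlapping. Its fitted genotype change of 0.16 log2 units (SE 0.065, 95% interval 0.02 to 0.30) was the largest positive one among the 10 and missed the threshold (edgeR adjusted p = 0.0567). The intervals of these fits are not adjusted for the number of genes. For Rnf31 the genotype change was 0.08 (−0.06 to 0.22, edgeR adjusted p = 0.348), and for Rbck1 it was 0.05 (−0.10 to 0.20, 0.563).

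Per kilobase of exon, Rbck1 was the most abundant LUBAC subunit in every library, at 68.9 to 74.6 CPM per kb. Sharpin was at 25.7 to 29.2 and Rnf31 at 22.7 to 26.6 CPM per kb, ranges that overlap. The ratio of Rbck1 to Rnf31 lay between 2.77 and 3.03 over the 4 libraries. These ratios rest on the union of all annotated exons of each gene, and the transcripts present were not measured. Rnf31 (chromosome 14, 55591708 to 55603693, plus strand) shares 123 exon bases at its end with Irf9, which encodes an interferon signalling factor and rose by 0.19 log2 units with genotype (edgeR adjusted p = 0.0270). Sharpin lies on chromosome 15, from 76347040 to 76351111 on the minus strand, and Rbck1 on chromosome 2, from 152316334 to 152332653 on the minus strand.

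Otulin cleaves the linear chains that LUBAC builds. It was at 48.8 and 48.2 CPM in rTreg and aTreg of WT and at 49.2 and 53.5 CPM in the KO-labelled rTreg and aTreg libraries, so the KO-labelled libraries stood above the WT ones by as little as 0.323 CPM. Its counts of 866 to 1025 per library made it, with Ikbkg, one of the least deeply counted of the 10. The fitted genotype change was 0.08 log2 units (SE 0.083, 95% interval −0.10 to 0.26, edgeR adjusted p = 0.451). Otulin (chromosome 15, 27542635 to 27630693, minus strand) overlaps Ank on the opposite strand without sharing exon bases. Ank fell by 0.78 log2 units. The sources used here do not say whether counting used the strand.

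A20, the product of Tnfaip3, edits ubiquitin chains on RIPK1 and binds linear chains. Tnfaip3 had the most counts of the 10, at 2340 and 2370 CPM in rTreg and aTreg of WT and at 1546 and 1591 CPM in the KO-labelled rTreg and aTreg libraries. The genotypes were far apart and the states nearly equal. By count it ranked 17 and 20 among all genes of the WT rTreg and aTreg libraries and 39 in each KO-labelled library. The log2 ratio of KO-labelled over WT was −0.60 in rTreg (95% exact binomial interval −0.62 to −0.58) and −0.58 in aTreg (−0.60 to −0.55). These intervals cover counting error only, since copies made by PCR are not independent molecules. The ratios differed between states by 0.02 (counting interval −0.01 to 0.05). The fit gave a fall by 0.59 log2 units (SE 0.068, 95% interval −0.73 to −0.44, edgeR adjusted p = 1.9e-05), lower in 2 of 2 states. Of all tested genes, 6.53% had a lower genotype change than Tnfaip3, and 15.4% lay at least as far from 0. The gene spans 19000910 to 19015657 of chromosome 10 on the minus strand and overlaps no other annotated gene.

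ABIN1, the product of Tnip1, binds linear chains and recruits A20. Tnip1 was at 290 and 325 CPM in rTreg and aTreg of WT and at 240 and 276 CPM in the KO-labelled rTreg and aTreg libraries. Both KO-labelled libraries lay below both WT libraries, and within each genotype the aTreg library was the higher one. The log2 ratio of KO-labelled over WT was −0.27 in rTreg (counting interval −0.33 to −0.22) and −0.23 in aTreg (−0.29 to −0.18). Tnip1 fell by 0.25 log2 units with genotype (SE 0.066, 95% interval −0.40 to −0.11, edgeR adjusted p = 0.00712). This call was lost when the states of a genotype were taken as replicates of each other (adjusted p = 0.167), a fit in which Tnfaip3 was 1 of the 10 called lower against 7.2% of all tested genes. In the authors' deposited table, which has WT over knockout, Tnfaip3 had a log2 fold change of 0.58 (adjusted p = 1.58e-06) and Tnip1 of 0.25 (0.235), with 7% of the genes that have an adjusted p called higher in WT. Tnip1 lies on chromosome 11, from 54910785 to 54962917 on the minus strand.

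Per kilobase of exon, Tnfaip3 exceeded Tnip1 by 3.95 and 3.57 times in WT rTreg and aTreg and by 3.15 and 2.82 times in the KO-labelled libraries. Tnfaip3 made up 62.6% and 62.0% of the summed CPM of the 10 genes in WT and 52.5% and 52.0% in KO-labelled libraries. The other 9 genes together summed to 1400.3 and 1450 CPM in WT and to 1400.5 and 1468 CPM in KO-labelled rTreg and aTreg, so that the sum of these 9 was not lower in the KO-labelled libraries.

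The promoters of the genes called are shown because both of them held a match to the NF-kappaB consensus. It was searched on both strands of windows that run from 250 bases before to 50 bases after the RefSeq transcript start (GRCm38.p6), and such windows were found for 9 of the 10 genes, Sharpin being the one without. Matches are in capitals, and sequences run 5′ to 3′ on the gene's strand. The stretch of Tnfaip3 ends just before the RefSeq start. That of Tnip1 ends farther from it, at 54962957, where the start used for distances is at 54962940. Neither holds an annotated exon of the gene, and that of Tnfaip3 lies in an intron of a GENCODE transcript that starts farther upstream. For Map3k7, 30 bases around the match are given.
Tnfaip3, chr10:19015411-19015547, minus strand: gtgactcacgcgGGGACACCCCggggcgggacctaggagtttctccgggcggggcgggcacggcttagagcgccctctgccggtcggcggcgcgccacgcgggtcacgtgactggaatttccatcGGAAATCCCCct
Tnip1, chr11:54962957-54963190, minus strand: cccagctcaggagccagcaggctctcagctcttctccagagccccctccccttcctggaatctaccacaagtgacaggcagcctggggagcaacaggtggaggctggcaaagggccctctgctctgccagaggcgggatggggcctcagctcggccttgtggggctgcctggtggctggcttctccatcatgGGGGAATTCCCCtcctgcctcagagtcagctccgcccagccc
Map3k7, chr4:31964005-31964034, plus strand: ccccgggtcaGGAAATTCCCcgctcgggtc

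Tnfaip3 held 2 separate matches, whose first bases lay 125 and 12 bases upstream of the start. The capitals in Tnip1 are 3 overlapping matches on 1 run, the first of them 58 bases upstream. Map3k7, which was not called, had 1 match that began 92 bases upstream. The consensus thus occurred in 3 of 9 genes with a window, against 9.55% of all 27025 genes with one and 8.46% of all 32851 windows. Among NF-kappaB target genes on a list chosen with earlier results of these data known, 8 of 10 with a window had a match. The windows of Birc2, Birc3, Rbck1, Rnf31, Otulin and Ikbkg, and a window at another Tnfaip3 start, held no match. A match is a description of the sequence, and binding was not measured.

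TAK1, encoded by Map3k7, is the kinase that activates IKK and MAP kinases once it is bound to ubiquitin chains. Map3k7 was at 113 and 109 CPM in rTreg and aTreg of WT and at 124 and 112 CPM in the KO-labelled rTreg and aTreg libraries. The genotypes overlapped, and both aTreg libraries lay below both rTreg libraries. Its genotype change was 0.09 log2 units (SE 0.066, 95% interval −0.06 to 0.23, edgeR adjusted p = 0.303). Map3k7 lies on chromosome 4, from 31964097 to 32023467 on the plus strand. Map3k7, Tnip1 and Otulin also overlap pseudogenes or small RNA genes on the opposite strand (Gm11926 and Gm26254, Gm12230, and Mir7117), without shared exon bases.

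NEMO, encoded by the X-linked Ikbkg, holds the IKK kinases to linear chains. Ikbkg was at 63.5 and 60.9 CPM in rTreg and aTreg of WT and at 54.9 and 55.4 CPM in the KO-labelled rTreg and aTreg libraries. Both KO-labelled libraries lay below both WT ones, with log2 ratios of −0.21 (counting interval −0.33 to −0.09) in rTreg and −0.13 (−0.25 to −0.01) in aTreg. The fitted change of −0.17 (SE 0.075, 95% interval −0.33 to −0.01) did not pass (edgeR adjusted p = 0.0768), but it passed with upper-quartile scaling (−0.22, adjusted p = 0.0282), which also moved the median of all tested genes from 0.00206 to −0.0445. Xist differed between the genotypes as given above, and of 4 X-linked genes known to escape silencing 3 fell: Kdm5c by 0.50, Kdm6a by 0.49 and Ddx3x by 0.22 log2 units. Eif2s3x (−0.06, edgeR adjusted p = 0.517) did not pass. Over all 292 tested X-linked genes the median change was −0.000838, and 18.8% were called lower against 23% of autosomal genes. The part of sex makeup in the values of Ikbkg was not tested. Ikbkg (74393290 to 74453854, plus strand) also shares 418 exon bases with G6pdx, a pentose phosphate enzyme gene on the opposite strand that rose by 0.84 log2 units, so reads there may have been assigned to either gene or dropped.

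Over the 10 genes, the KO-labelled libraries both lay above the WT libraries for 4 (Birc2, Birc3, Sharpin and Otulin), where 33.2% of all tested genes did. They both lay below for 3 (Tnfaip3, Tnip1 and Ikbkg), where 31.9% of all tested genes did. Log2 ratios were positive in both states for 7 genes and negative in both for 3, against 41.8% and 40.9% of all tested genes. Apart from Tnfaip3 and Tnip1, fitted changes ran from −0.17 to 0.16. For Rbck1 alone the counting interval of the difference between states excluded 0: its ratio was 0.01 in rTreg and 0.09 in aTreg, a difference of 0.08 (0.00492 to 0.15), which has no replicate check.

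**Figure D2:**
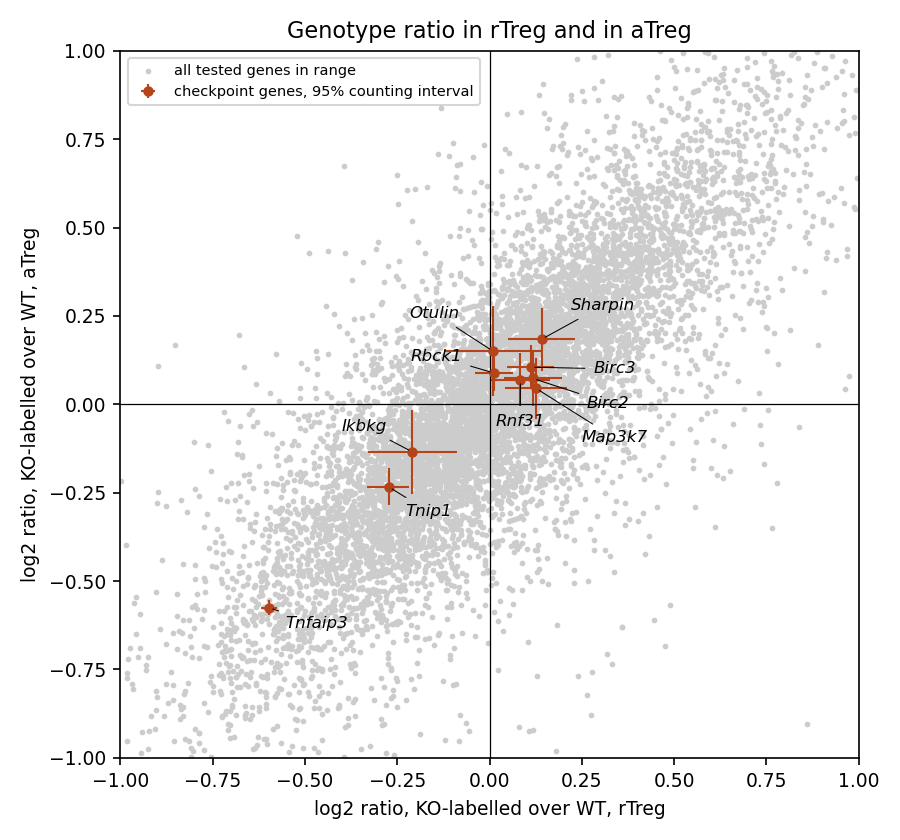
Log2 ratio of KO-labelled over WT in rTreg (x axis) against aTreg (y axis). Grey points are tested genes within the axes, and orange points are the 10 checkpoint genes with 95% counting intervals, among which Tnfaip3 (−0.60 and −0.58) stands away from the others.

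Between states, none of the 10 genes was called by edgeR, where 7.91% of all tested genes were called higher and 5.44% lower in aTreg. At an unadjusted edgeR p of 0.05, 2 genes (Rnf31 and Tnip1) were higher and 0 lower. The shares of all tested genes at that level were not computed and cannot be smaller than the 7.91% and 5.44% at the adjusted threshold. DESeq2 called 0 of the 10, and over all 9680 tested genes it called 289 higher and 134 lower. Tnip1 had the largest fitted state change, at 0.18 log2 units (SE 0.066, 95% interval 0.04 to 0.32, edgeR adjusted p = 0.0946), with aTreg over rTreg ratios of 0.16 (WT) and 0.20 (KO-labelled). Rnf31 followed at 0.15 (SE 0.064, 0.01 to 0.29, edgeR adjusted p = 0.144), with ratios of 0.16 and 0.15. Tnfaip3 had a state change of 0.03 (SE 0.068, −0.12 to 0.18, edgeR adjusted p = 0.831). Birc2, Birc3, Sharpin, Otulin, Tnfaip3, Tnip1 and Ikbkg overlapped between states. Both aTreg libraries lay above both rTreg libraries for 2 genes and below them for 1, against 14.1% and 12.9% of all tested genes.

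**Figure D3:**
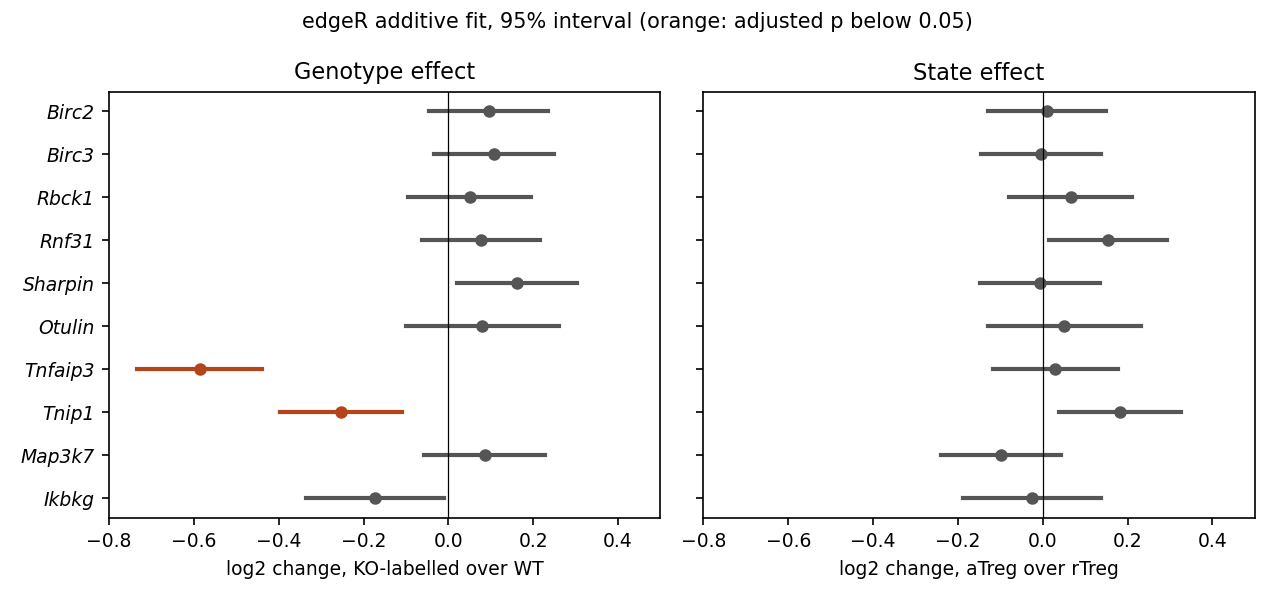
Log2 changes of the 10 genes from the edgeR additive fit, for genotype (left, KO-labelled over WT) and state (right, aTreg over rTreg). Points are estimates and lines their 95% intervals, and only Tnfaip3 and Tnip1 passed the adjusted threshold, for genotype (orange).

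Of 12 tested ubiquitin, E1 and E2 genes, which supply the ligases with ubiquitin, 3 were called higher and 1 lower with genotype, with a median log2 change of 0.03. The shares over all tested genes were 24.4% and 22.8%, so that the share called higher was near that of all genes. Ube2n, the E2 enzyme that makes lysine-63-linked chains, was at 78.1 and 66.5 CPM in WT rTreg and aTreg and at 118 and 116 CPM in the KO-labelled ones, a fitted rise of 0.70 log2 units (SE 0.072, adjusted p = 7.64e-06 in edgeR). Ube2l3, an E2 enzyme that works with LUBAC, was at 85.5 and 88.2 against 139 and 137 CPM and rose by 0.67 (SE 0.066, 4.99e-06). The libraries of the genotypes did not overlap for either E2. The E1 enzyme gene Uba1 rose by 0.33. The one gene that fell, Rps27a, encodes a fusion of ubiquitin and a ribosomal protein and fell by 0.35. The polyubiquitin gene Ubb did not pass, at 0.07 (edgeR adjusted p = 0.455).

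Among other inhibitors of apoptosis and their antagonists, 3 of 4 tested genes fell and none rose, where 22.8% of all tested genes fell. Birc6, a giant ubiquitin-conjugating inhibitor of apoptosis, was at 784 and 758 CPM in WT and at 576 and 580 CPM in KO-labelled rTreg and aTreg, a fall by 0.42 log2 units (SE 0.068, edgeR adjusted p = 0.000285). Diablo and Htra2, mitochondrial proteins that antagonise such inhibitors, fell by 0.60 (SE 0.19) and 0.41 (SE 0.13). In WT rTreg and aTreg, Diablo was at 11.4 and 10.8 CPM and Htra2 at 18.3 and 21.7 CPM. The X-linked Xiap had a change of −0.12 and did not pass (edgeR adjusted p = 0.153).

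Of 5 tested genes of TRADD and the TRAF adaptors, 1 fell and none rose, against 22.8% and 24.4% of all tested genes. Traf6, a ligase of the interleukin-1 and Toll-like receptor pathways, fell by 0.26, and Tradd (−0.11) and Traf3 (−0.13) did not pass. Traf5 was under the level minimum. Traf2, which brings the cIAPs to the receptor, had a genotype change of −0.07 (edgeR adjusted p = 0.382) and rose between states by 0.28 log2 units (0.0135). Traf1, an NF-kappaB target, rose by 0.48 in aTreg (edgeR adjusted p = 0.000428). Of 4 genes of other deubiquitinases and an adaptor, 2 fell and none rose, against the same shares of all tested genes. Usp21 fell by 0.34 and Otud7b by 0.27. Cyld, which removes lysine-63-linked and linear chains from RIPK1, had a change of −0.15 (edgeR adjusted p = 0.077) and its adaptor Spata2 of 0.19 (0.0517).

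Among 5 tested partners of A20, 1 rose and none fell, against 24.4% and 22.8% of all tested genes. N4bp1, an inhibitor of NF-kappaB signalling, rose by 0.38 log2 units, and Tnip2 (−0.16), Itch (−0.12), Rnf11 (−0.22) and Tax1bp1 (0.14) did not pass. Tnip3 and Optn were under the level minimum.

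Of 10 tested genes of the kinases around TAK1, IKK and TBK1, 2 rose and 2 fell with genotype, with a median of 0.00003, no larger shares than the 24.4% and 22.8% over all tested genes. Ikbkb, the catalytic IKK subunit of the NF-kappaB pathway, was at 365 and 324 CPM in WT and 277 and 245 CPM in KO-labelled rTreg and aTreg, a fall by 0.40 log2 units (SE 0.066, edgeR adjusted p = 0.000318). Ikbke, a kinase related to TBK1, fell by 0.29. Tab2, which ties TAK1 to lysine-63-linked chains, rose by 0.37, and Mapkapk2, a kinase that phosphorylates RIPK1, rose by 0.43 (SE 0.068, edgeR adjusted p = 0.00022). The IKK subunit gene Chuk (−0.00456) and Tbk1 (0.00462) did not pass. Of 5 tested genes of the RIPK1 death complex, 2 rose and none fell, against 24.4% and 22.8% of all tested genes. Fadd rose by 0.77 and Ripk3 by 0.39, while Casp8 (0.03) and Cflar (−0.13) did not pass and Mlkl was under the level minimum.

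**Figure D4:**
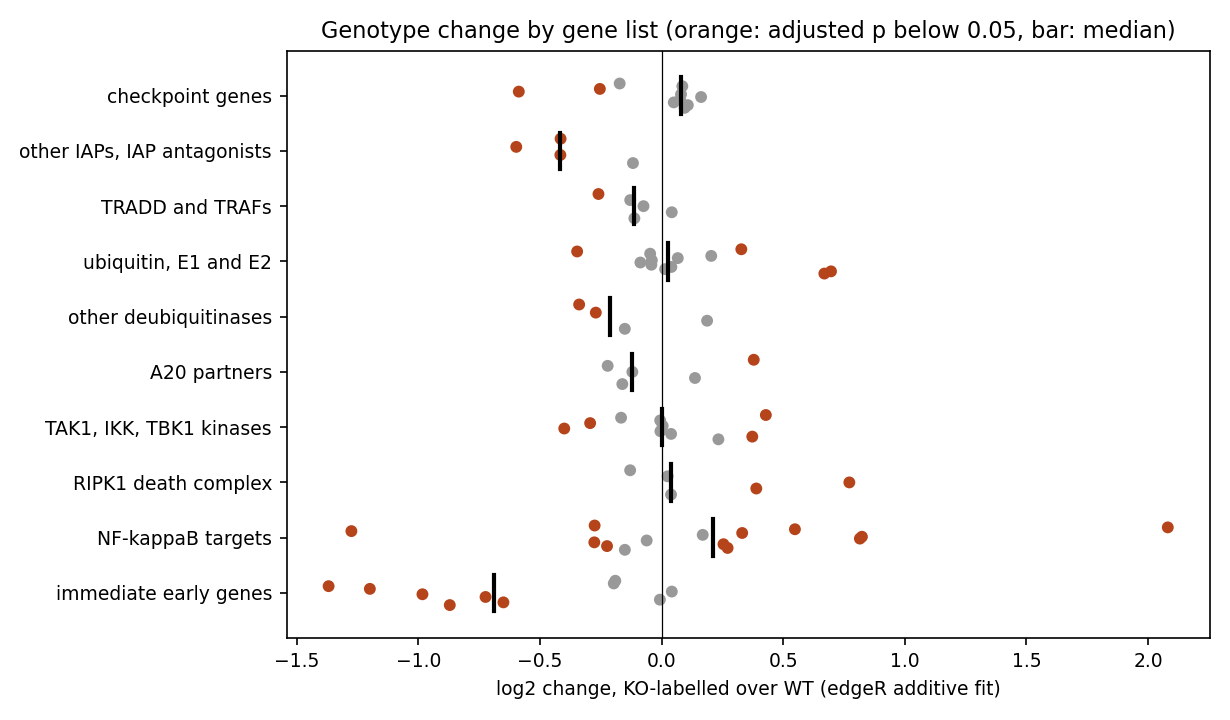
Fitted log2 change of KO-labelled over WT (x axis) for the tested genes of 10 lists, 1 point per gene, with orange for an adjusted p below 0.05 and a black bar at each list's median. The checkpoint genes have a median of 0.08, NF-kappaB targets spread to both sides of 0, and immediate early genes have a median of −0.69.

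Other NF-kappaB targets went in both directions. Of 14 tested target genes on the list, 7 rose and 4 fell with genotype, against 24.4% and 22.8% of all tested genes. Their median log2 change was 0.21, and the list was chosen with earlier results of these data known. Ccl5, a chemokine gene, rose by 2.08, and Bcl3 by 0.82. Cd83, a surface protein gene, fell by 1.27 in the fit, with unlike log2 ratios of −0.64 in rTreg and −1.79 in aTreg. Rel, Nfkbiz and Nfkb1 fell by 0.28, 0.27 and 0.22, each with a larger fall in aTreg than in rTreg. Between states 8 of the 14 rose and none fell, against 7.91% and 5.44% of all tested genes, and Tnfaip3 was not called.

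Of 10 tested immediate early genes, which respond to receptor signals and to handling of cells, 6 fell with genotype and none rose, where 22.8% of all tested genes fell. The median was −0.69, and Btg2, a gene of growth arrest, fell the most, by 1.37. In rTreg the ratios of the 10 ran from −1.09 (Btg2) to 0.26 (Jun and Ier2), with a median of −0.25. That of Tnfaip3 was −0.60. In aTreg the ratios of the 10 ran from −1.89 (Egr1) to −0.17 (Ier2), with a median of −0.94, and that of Tnfaip3 was −0.58. The 13 genes of this list summed to 5090 and 9291 CPM in WT rTreg and aTreg and to 3959 and 4879 CPM in the KO-labelled libraries. All 10 tested rose in aTreg, where 7.91% of all tested genes did. Tnfaip3 fell with genotype by 0.59 log2 units, and its state change was 0.03. The part of handling in the values of Tnfaip3 was not tested.

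The genes whose profiles over the 4 libraries were closest to those of the 3 most variable members were found by the Euclidean distance between log2 CPM values centred on their mean. For Tnfaip3 they were Ctu2 (distance 0.0138), Jmjd8 (0.0211) and Lancl1 (0.0273). Ctu2 stood at 45.2 and 46.3 CPM in WT and at 30.1 and 30.9 CPM in KO-labelled rTreg and aTreg. For Tnip1 they were Mrpl2 (0.0191), Ppp1r9b (0.0244) and Wdr91 (0.0275), and for Rnf31 Nudt1 (0.0147), Sdf2 (0.0155) and Srsf9 (0.022). The distances are a description over 4 libraries.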

How the data were processed

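The submitters' processing notes name HISAT2 2.2.1, featureCounts 2.0.1 and the build GRCm38, and the sources used here state neither annotation nor strand setting. Libraries were prepared with a SMARTer kit from TRIzol RNA, per the labels' protocols. The authors deposited whole-number read counts for 19044 symbols, not normalized, which were used for all tests. The authors' deposited table of variance-stabilised log2 values was used as an alternative measure. It also holds, per the file headers, a log2 fold change with its error, a p-value and adjusted p-value, a test statistic (a score) and a mean signal of size-factor-scaled counts.

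A mean of at least 5 CPM was required (9680 genes, 99.31% of counts). Counts were scaled by TMM and fitted with edgeR 4.0.16 in R 4.3.3 (glmQLFit, state and genotype as additive terms, 1 residual degree of freedom, prior weight 11.8, biological coefficient of variation 6.66%). Standard errors are the log2 change over the square root of F. Ratios of 2 libraries carry exact binomial 95% intervals given their sum, without a prior count. DESeq2 1.42.0, RLE and upper-quartile scaling, other level filters and fits with 1 term were alternatives. Code was tested on simulated data. Positions and exon lengths come from GENCODE M21 (GRCm38), and promoters from RefSeq.

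The members and lists were chosen with earlier results of these data known. Named were all members, genes of lists of 7 or fewer, the called gene of each list with the largest change per direction, the 3 closest profiles of the 3 most variable members, and overlapping genes. Not every gene of this rule is printed. The result of 1 list is not reported here. Ube2l3, Uba1, Ubb, Ikbke, Tab2, Chuk, Tbk1, Bcl3, Rel, Nfkbiz and Nfkb1 were named after their values were seen.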

Additional observations from a re-analysis of the deposited data

How the results depend on the processing

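Of the genotype changes of the 10 genes, none changed direction under any alternative run, and 2 of the comparisons with the threshold changed. Tnip1 was not called with genotype as the only term, and Ikbkg was called with upper-quartile scaling, which moved the median of all tested genes from 0.00206 to −0.0445. Tnfaip3 passed in every alternative with a test, with adjusted p-values from 3.14e-18 (no filter on low counts) to 0.0174 (genotype alone), and those of Tnip1 ran from 0.00233 to 0.167. With genotype alone, 1 of the 10 genes was called, and over all genes 1626 were called in place of 4573. DESeq2 called 2527 genes for genotype and 423 for state, in place of 4573 and 1293, and with state as the only term 0 genes were called for state. State changes near 0 turned sign: Birc2 was at −0.00227 with upper-quartile scaling and at −0.012 without the WT libraries, Sharpin at 0.016 and Ikbkg at 0.014 without the WT libraries, and Otulin at −0.018 without the KO-labelled libraries. Leaving out 1 library of the additive fit leaves no residual degree of freedom, so the ratio of the remaining complete pair stands in for it. No paired analysis was possible because the labels give neither replicate numbers nor shared animals and each group has 1 library, and state is already a term of the genotype fit. Counts of 866 and more per library limit the members' counting error to small ratios, and the missing replicates limit every comparison.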
